A study of Homo sapiens with 3 samples.

Results

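The clusters described here lie in the 3' untranslated regions (UTRs) of mRNAs and were recovered with DICER, an RNase III enzyme best known for cutting the hairpin precursors of miRNAs. A cluster is a stretch of overlapping reads with T-to-C conversions. It was counted as a member when it lay in an exon of a coding RefSeq transcript, carried a 3' UTR annotation but none for the 5' UTR or the coding sequence, and named neither DICER1, an Alu repeat nor an annotated structured noncoding RNA on its own strand. This choice used only annotation and no measured value. Members numbered 3373 of 11577 clusters in replicate 1, 3913 of 18065 in replicate 2 and 901 of 5099 in replicate 3. In the series-wide list, which holds clusters with reads from 2 or 3 replicates, they numbered 2363 of 8469. All 3 samples formed 1 group: the HEK293 line, derived from human embryonic kidney, as a Flp-In T-Rex strain labelled FLAG:DICER and studied by PAR-CLIP with T1. In PAR-CLIP, a photoreactive uridine taken up by the cells is linked by ultraviolet light to the bound protein, and the linked sites read as T-to-C changes. The labels name no library without the tagged protein, no RNA abundance was used here, and binding and abundance of an mRNA cannot be told apart in these counts. The protein recovered was thus a tagged DICER, and its expression level relative to the cells' own DICER is not given in the labels. Whether the replicates were separate cultures is not stated, so p-values measure only the spread between these samples, which may be technical.

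The 3' UTR runs from the stop codon to the poly(A) tail and does not code for protein. It is the main landing place for miRNAs loaded into Argonaute, and it holds AU-rich stretches, hairpins and other elements that set the stability, location and translation of the mRNA. DICER itself acts on double-stranded RNA, and a 3' UTR is not among its classic substrates. No genome of the files' build (hg19) was used here, so sites are given by position and no letters are shown.

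Clusters in 3' UTRs were numerous and shallow. They made up 22.8% ± 5.82 of all clusters but held 4.30% ± 1.22 of conversions and 9.42% ± 2.18 of distinct reads (SD, n = 3). Conversions in members summed to 74437, 36993 and 22040 in replicates 1, 2 and 3, and distinct reads to 11886, 11700 and 2032. A typical cluster had 14, 6 and 20 conversions in replicates 1, 2 and 3 (medians), and the middle 90% spanned 2 to 58, 2 to 24 and 5 to 53. Replicate 3 thus had the fewest clusters and the highest median. The fewest distinct reads in any member was 2, and 52.6%, 70.6% and 91.8% of members in replicates 1, 2 and 3 had exactly that many. Each distinct read was seen 6.90 times in replicate 1, 3.29 times in replicate 2 and 10.9 times in replicate 3, so conversions count copies as well as molecules. Members with 10 or more distinct reads numbered 134, 101 and 5.

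The clusters were short and mostly marked by few converted positions. Their median length was 33, 29 and 27 nt in replicates 1, 2 and 3, with a longest cluster of 390, 109 and 59 nt. A single converted position was recorded for 38.7%, 75.8% and 96.1% of members. Conversions stood at 90.8%, 96.0% and 99.4% of the number of reads. The 10 deepest members of each list held 8.97%, 10.7% and 7.86% of member conversions, and the 100 deepest held 25.7%, 25.7% and 30.3%. The signal was therefore spread over many sites in each list.

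Few 3' UTR clusters were found at the same place in every replicate. An overlap of 1 nt or more between clusters of the same strand was counted. Of the members in replicate 1, 229 (6.79%) were overlapped in both other replicates, 907 in 1 of them and 2237 (66.3%) in neither. In replicate 2 these numbers were 226 (5.78%), 929 and 2758 (70.5%), and in replicate 3 they were 229 (25.4%), 178 and 494 (54.8%). Over all clusters of the series, 11.8% in replicate 1, 7.51% in replicate 2 and 27.9% in replicate 3 were overlapped in both others, so members lay below the whole list in each replicate. The higher share in replicate 3 went with its shorter list. In the series-wide list, 312 members (13.2%) had reads from all 3 replicates by the authors' attribute, against 21.8% of all clusters there. A member of that list was overlapped by a cluster in 3 replicate lists for 230 sites, in 2 for 944, in 1 for 856 and in none for 333, whose median was 12 conversions against 63 for the 230.

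Support rose with the number of distinct reads. In replicate 1, 1.52% of members with 2 distinct reads were overlapped in both other replicates, 6.52% of those with 3 to 4, 17.3% of those with 5 to 9 and 45.5% of those with 10 or more. Replicate 2 gave 1.30%, 8.89%, 21.7% and 56.4% for the same bins. In replicate 3 the first bins gave 20.9% of 827 and 63.3% of 49, and all 20 members with 5 to 9 and all 5 with 10 or more were overlapped in both others. Members overlapped in both others had a median of 34, 17 and 24 conversions in replicates 1, 2 and 3, against 12, 5 and 18.5 for members overlapped in neither.

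**Figure D1:**
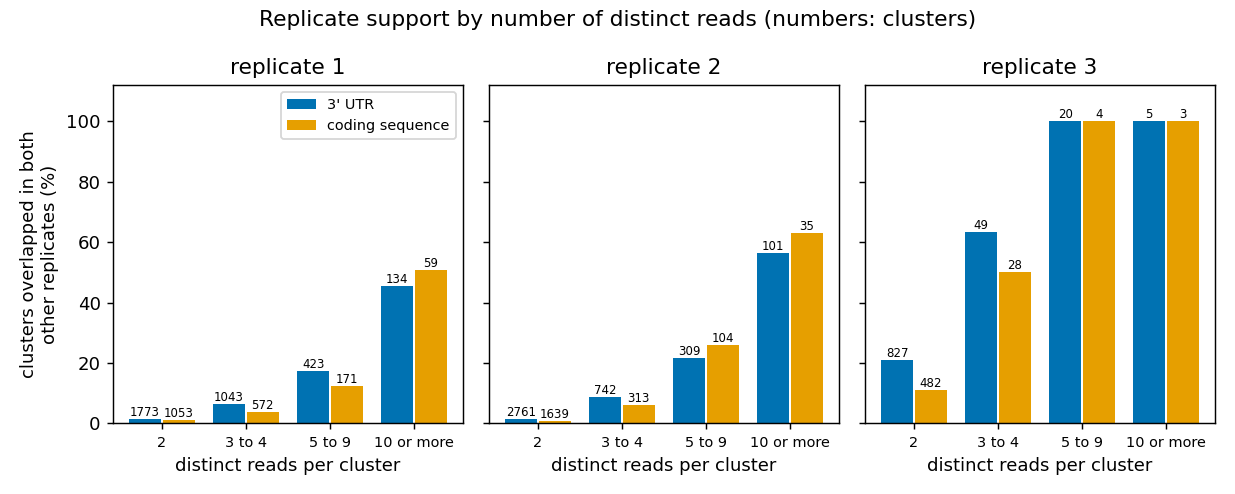
Bars show the share of clusters (percent) overlapped in both other replicates, by the number of distinct reads in the cluster, for 3' UTR and coding sequence clusters in each replicate, with the number of clusters above each bar. In replicate 1 the 3' UTR bars rise from 1.52% at 2 distinct reads to 45.5% at 10 or more.

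Compared with coding sequence clusters chosen by the same filters, 3' UTR clusters were overlapped more often in each replicate. The coding sequence shares were 4.47%, 3.87% and 14.3%, which put the 3' UTR 2.31, 1.90 and 11.1 percentage points higher, with a mean of 5.11 ± 5.20 (SD, n = 3; p = 0.25 by an exact two-sided permutation of the signs, adjusted p = 0.321, in 3 of 3 replicates). With 3 replicates p cannot fall below 0.25, and 9 tests of this kind were made, all two-sided. Without replicate 2 the mean was 8.15 and without replicate 3 it was 8.98, with 1 other list left to match. Within bins of distinct reads, the 3' UTR share was the higher in all 3 replicates at 2 distinct reads, where coding sequence clusters gave 11 of 1053 (1.04%), 13 of 1639 (0.793%) and 53 of 482, and at 3 to 4, where they gave 3.67%, 6.07% and 50%. At 5 to 9 it was the higher in replicate 1 (17.3% against 12.3%) and the lower in replicate 2 (21.7% against 26.0%). In replicate 3 both shares were 100% in that bin, of 20 and 4 clusters. At 10 or more the 3' UTR share was the lower in replicates 1 and 2 (45.5% of 134 against 50.8% of 59, and 56.4% of 101 against 62.9% of 35). The bins were not tested singly. Against 5' UTR clusters, which were overlapped in 14.3%, 10.6% and 35.4% of cases, the 3' UTR differed by -7.41 percentage points ± 2.58 (SD, n = 3; exact sign-flip permutation p = 0.25, adjusted p = 0.321, in 3 of 3 replicates).

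The median cluster carried somewhat more conversions in the 3' UTR than in the coding sequence. Coding sequence medians were 12, 5 and 17, and the difference of median log2 conversions was 0.24 ± 0.02 (SD, n = 3; exact sign-flip permutation p = 0.25, adjusted p = 0.321, in 3 of 3 replicates). By distinct reads the median difference was 0 in log2. Median lengths differed by 0.667 nt ± 0.577 (SD, n = 3; exact sign-flip permutation p = 0.5, adjusted p = 0.5), less than the spread of 3.06 nt between replicates.

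Where 2 replicates overlapped in a 3' UTR, the peak position that the files give for each cluster was often the same nucleotide. It was identical for 469 of 1056 overlapping members between replicates 1 and 2 (44.4%), 168 of 309 between 1 and 3 (54.4%) and 163 of 314 between 2 and 3 (51.9%). It lay within 5 nt for 70.1%, 71.2% and 75.2%. Coding sequence clusters gave 54.1%, 56.8% and 61.7% identical positions, somewhat above the 3' UTR in each pair, a difference that was not tested. The sources used here do not say how this position was chosen.

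The depth of a shared site in 1 replicate only partly followed its depth in another. Over the 230 sites overlapped in all 3 lists, log2 conversions had a Pearson r of 0.608 and a Spearman rho of 0.557 between replicates 1 and 2, 0.279 and 0.175 between 1 and 3, and 0.448 and 0.346 between 2 and 3. By distinct reads Pearson r was 0.664, 0.449 and 0.513. These values run across sites and describe them without a test; the sites share libraries and differ in mRNA abundance. Conversions at the 230 sites ranged from 1 to 2153 in replicate 1, 1 to 822 in replicate 2 and 2 to 469 in replicate 3, with medians of 33.5, 17 and 25. The highest share of the list fell in replicate 3 for 124 of the sites, in replicate 1 for 79 and in replicate 2 for 27.

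**Figure D2:**
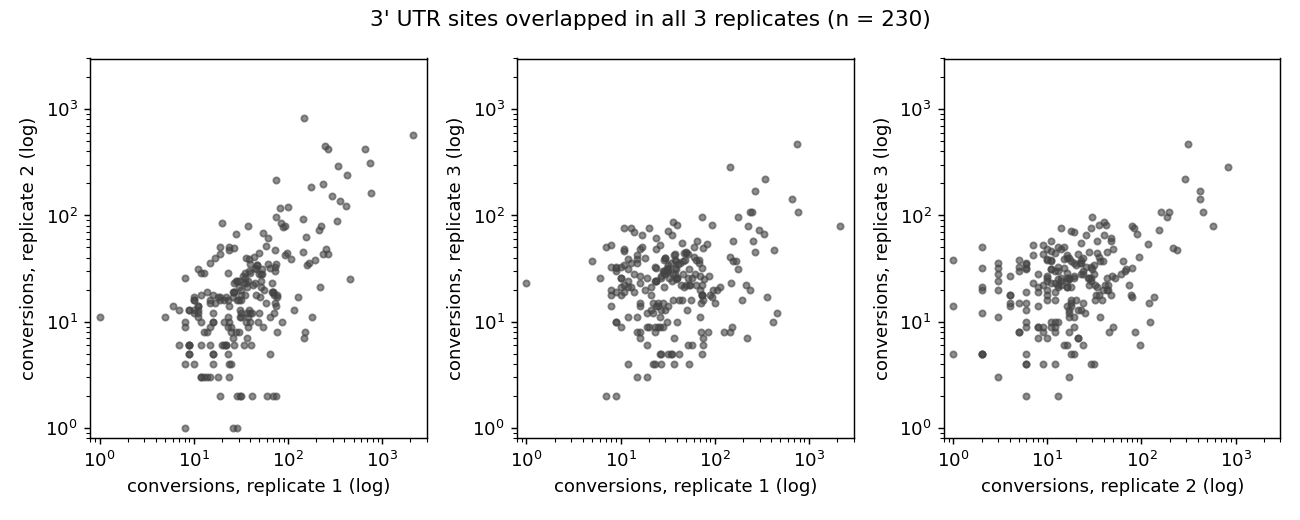
Each point is 1 of the 230 3' UTR sites overlapped in all 3 replicates, with its conversions in 2 replicates on log axes. Points between replicates 1 and 2 follow a diagonal more closely (r = 0.608) than those between 1 and 3 (r = 0.279).

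The 12 deepest sites overlapped in all 3 lists had 451 to 2483 conversions in the series-wide list. The site in DCAF7, which encodes a WD40-repeat scaffold for protein kinases, led the series-wide list of members (hg19 chromosome 17, 61667869 to 61667941, plus strand, exon 7). It had 2153, 570 and 80 conversions from 88, 58 and 8 distinct reads in replicates 1, 2 and 3. Replicate 1 was far above the others, and the share of listed conversions differed 12.3-fold between the highest and lowest replicate. The mean share was 0.0773% ± 0.0784 (SD, n = 3), and 0.0336% without replicate 1. In the series-wide list, which is not the sum of the replicate lists, it had 2483 conversions and ranked 81 among clusters of every kind.

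PFN1, which encodes profilin, an actin-binding protein, had the second deepest site (chromosome 17, 4849027 to 4849081, minus strand, exon 3). It had 741, 314 and 469 conversions from 31, 29 and 22 distinct reads, or 0.0550% ± 0.0246 of listed conversions (SD, n = 3), and was the deepest member of replicate 3. MAPRE1, which encodes the microtubule plus-end protein EB1, had the third (chromosome 20, 31436777 to 31436830, plus strand, exon 7). It had 147, 822 and 283 conversions, so replicate 2, where it was the deepest member, stood highest and replicate 1 lowest. Its mean share of 0.0454% was 0.0294% without replicate 2.

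AGGF1, an angiogenic factor with a G-patch domain, had 668, 419 and 143 conversions from 42, 38 and 10 distinct reads (chromosome 5, 76360457 to 76360531, plus strand, exon 14). By distinct reads its share of the list was the most even of these sites, at 0.0355% ± 0.00251 (SD, n = 3). H3F3B, which encodes the replication-independent histone H3.3 on a polyadenylated mRNA, had 764, 163 and 108 conversions (chromosome 17, 73774420 to 73774521, minus strand, exon 4), the last from 2 distinct reads. Its mean share of 0.0307% was 0.0168% without replicate 1, and 0.0174% of distinct reads. Processed copies of H3F3B exist elsewhere in the genome, and whether reads belong to them was not tested.

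STK11, the tumour suppressor kinase LKB1, had 249, 455 and 108 conversions from 43, 46 and 7 distinct reads (chromosome 19, 1227766 to 1227844, plus strand, exon 10). The site of TMED2, a cargo receptor of the p24 family, had 269, 421 and 170 conversions and was the second by distinct reads, with 80 in the series-wide list (chromosome 12, 124081692 to 124081813, plus strand, exon 4). In both genes replicate 2 was highest. TMED2 was covered by 2 separate clusters in replicate 3.

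VAPB, which tethers the endoplasmic reticulum to other membranes, had 426, 238 and 47 conversions (chromosome 20, 57024847 to 57024926, plus strand, exon 3 or 6 by transcript), within an annotated repeat of the Eulor group. MLEC, which encodes malectin, a sugar-binding protein of the endoplasmic reticulum, had 345, 290 and 221 (chromosome 12, 121139517 to 121139561, plus strand, exon 5). By conversions MLEC varied least of these sites, with a 1.41-fold range of shares and 0.0303% ± 0.00593 of listed conversions (SD, n = 3). By distinct reads its share was less even, from 0.0229% in replicate 1 to 0.0612% in replicate 3.

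KPNA6, an importin that carries proteins into the nucleus, had 417, 124 and 10 conversions (chromosome 1, 32637416 to 32637487, plus strand, exon 14). The site was also annotated as intron. Its share of listed conversions fell between 0.0319% in replicate 1 and 0.00168% in replicate 3, as a ratio the widest of these sites. The mean share was 0.0151%, 0.00668% without replicate 1 and 0.0301% of distinct reads. NUCKS1, a DNA-binding nuclear phosphoprotein, had 361, 136 and 17 (chromosome 1, 205686014 to 205686065, minus strand, exon 7), and FAM219B had 295, 154 and 73 (chromosome 15, 75193817 to 75193892, minus strand, exon 5). In KPNA6 and NUCKS1 the value of replicate 3 rested on 2 distinct reads. The mean share of NUCKS1 was 0.0144%, and 0.00784% without replicate 1.

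Of these 12 sites, the highest share fell in replicate 1 for 7, in replicate 2 for 3 and in replicate 3 for 2. Of the same sites, 9 differed more than 2-fold in share between replicates. By distinct reads, 9 of the 12 were also among the 12 deepest members. None overlapped an annotated transcript end (0 of 12), and 6 lay within 1000 nt past the end of another annotated transcript, a position 37.3% of series-wide members also had.

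**Figure D3:**
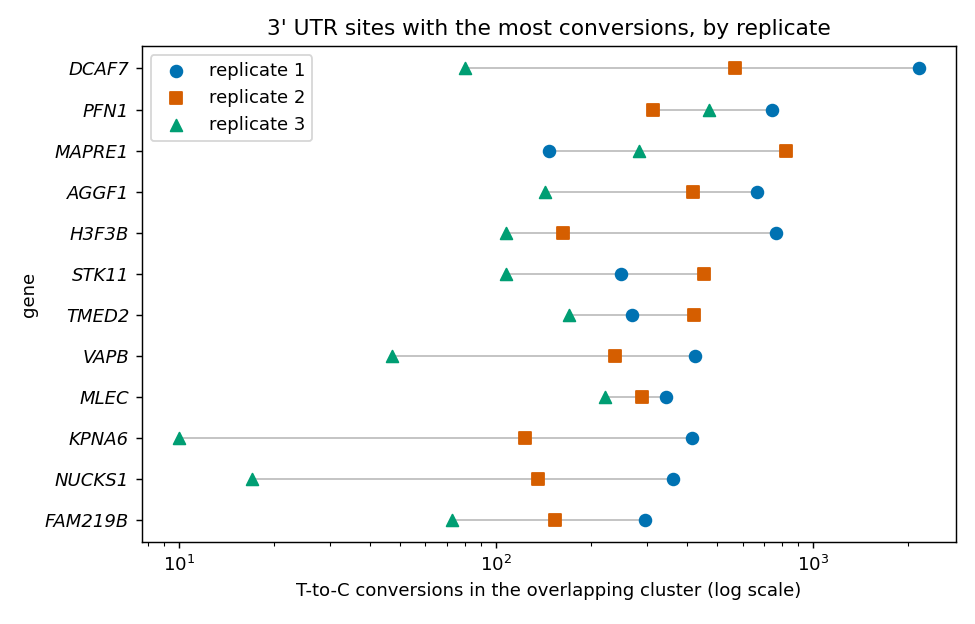
Points show T-to-C conversions (log axis) in replicates 1, 2 and 3 for the 12 deepest 3' UTR sites overlapped in all 3 replicates, with a grey line from lowest to highest. DCAF7 spans 80 to 2153 conversions, while MLEC spans 221 to 345.

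Some deep sites were missing from a replicate. In PPIL1, a cyclophilin-type peptidyl-prolyl isomerase of the spliceosome, a site had 354 and 52 conversions from 19 and 17 distinct reads in replicates 1 and 2 and no cluster in replicate 3 (chromosome 6, 36823415 to 36823467, minus strand). A site in YWHAG, a 14-3-3 adaptor protein, had 346 and 78 and none in replicate 3 (chromosome 7, 75956731 to 75956759, minus strand). Members overlapped in neither other replicate were less deep. The deepest such member of replicate 1 lay in PTP4A1, a tyrosine phosphatase, with 128 conversions from 4 distinct reads and 1 sequencing run, followed by CDC42EP1, an effector of the GTPase CDC42, with 85 from 15 distinct reads. In replicate 2 they lay in KITLG, the ligand of the KIT receptor (57 conversions, 12 distinct reads), and RBMS2, an RNA-binding protein (34 and 7). In replicate 3 they lay in SPIN4 (93 conversions) and SLC35F2 (64), with 2 distinct reads each.

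Many mRNAs carried more than 1 site in the 3' UTR. Members lay in 2061 genes in replicate 1, 2464 in replicate 2, 789 in replicate 3 and 1598 in the series-wide list, where 447 genes (28.0%) had 2 or more sites, 170 had 3 or more and 40 had 5 or more. In the replicates 683 (33.1%), 828 (33.6%) and 94 (11.9%) genes had 2 or more. Coding sequence clusters were also present for 22.2%, 22.0% and 8.62% of member genes. Clusters in genes with several sites made up 59.4%, 58.5% and 23.5% of members, against 44.2%, 36.2% and 10.6% of coding sequence clusters, a difference of 16.8 percentage points ± 4.90 (SD, n = 3; exact sign-flip permutation p = 0.25, adjusted p = 0.321, in 3 of 3 replicates). For 5' UTR clusters the shares were 9.26%, 9.76% and 4.55%. Annotated lengths of these regions in hg19 were not used here, so the shares are not divided by length.

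Sites in the same exon were usually well apart. Between neighbouring members of 1 exon in the series-wide list, the median gap was 410 nt over 779 pairs, with quartiles of 135 and 882.5 nt. A gap of at most 100 nt was found for 152 pairs (19.5%) and one over 1000 nt for 162 (20.8%).

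**Figure D4:**
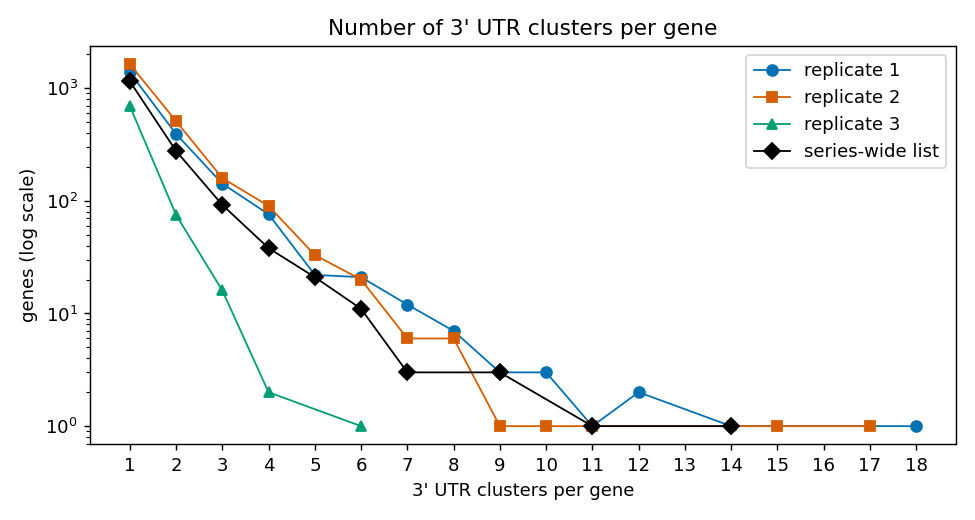
Lines show how many genes (log axis) had each number of 3' UTR clusters in the 3 replicates and the series-wide list, leaving out numbers with no gene. Genes with a single cluster number 1378, 1636 and 695 in the replicates and 1151 in the series-wide list, and the longest tails reach 18 and 17 clusters.

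NUCKS1 had the most 3' UTR sites in the series-wide list. Its 14 sites lay in exon 7 over 4208 nt (chromosome 1, 205683119 to 205687326), with 6 to 458 conversions and a median of 23.5. The deepest site, described above, held 58.8% of the gene's conversions and was the single site overlapped in all 3 lists, while 11 others were overlapped in 2. The replicate lists gave 14, 17 and 3 clusters for NUCKS1, with 632, 297 and 69 conversions.

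KLHL15, an adaptor of the CUL3 ubiquitin ligase, followed with 11 sites over 3250 nt of exon 4 (chromosome X, 24002135 to 24005384, minus strand). Its sites were more even, with 11 to 108 conversions, and the deepest held 22.0% of the total. Sites at 24005150 to 24005237 and at 24004155 to 24004193 were overlapped in all 3 lists. The first had 68, 19 and 36 conversions and the second 7, 6 and 2. With 18 clusters, KLHL15 had more than any other gene in replicate 1, against 11 in replicate 2 and 2 in replicate 3.

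SLC7A5, the large neutral amino acid transporter LAT1, and CBX5, the heterochromatin protein HP1 alpha, had 9 sites each. Those of SLC7A5 lay over 2596 nt of exon 10 (chromosome 16, 87863647 to 87866242, minus strand), with 399, 58 and 23 conversions at these sites in replicates 1, 2 and 3. Those of CBX5 lay over 8432 nt of exon 5 (chromosome 12, 54626223 to 54634654, minus strand), with 279, 108 and 177. CBX5 was the gene with the most clusters in replicate 3, at 6, and 2 of its sites were overlapped in all 3 lists. The deeper of these, at 54631615 to 54631658, had 158, 34 and 57 conversions.

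PURB, which binds single-stranded DNA and RNA, also had 9 sites, over 6562 nt (chromosome 7, 44916308 to 44922869, minus strand, exon 1), with 159, 77 and 34 conversions. SCD, the stearoyl-CoA desaturase, had 7 sites over 2936 nt of exon 6 (chromosome 10, 102120920 to 102123855, plus strand), with 223, 120 and 36. Its site at 102122128 to 102122164 was overlapped in all 3 lists, with 62, 61 and 28 conversions from 7, 14 and 2 distinct reads. HN1L, with 7 sites over 2002 nt (chromosome 16, 1749285 to 1751286, plus strand), had 109, 109 and 103 conversions at these sites, and 171, 126 and 103 over all its 3' UTR clusters in the replicate lists.

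TMPO, a lamina-associated protein of the nuclear envelope, had 7 sites of low depth, 18 to 38 conversions each (chromosome 12, 98942330 to 98944077, plus strand). KPNA6 had 6 sites, of which the deepest held 74.5% of the conversions. PMAIP1, the proapoptotic BH3 protein NOXA, had 6 sites over 1370 nt of exon 2 (chromosome 18, 57570157 to 57571526, plus strand), with 441, 161 and 0 conversions at them in replicates 1, 2 and 3. PMAIP1 was thus the member of these 10 genes without a cluster in replicate 3.

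**Figure D5:**
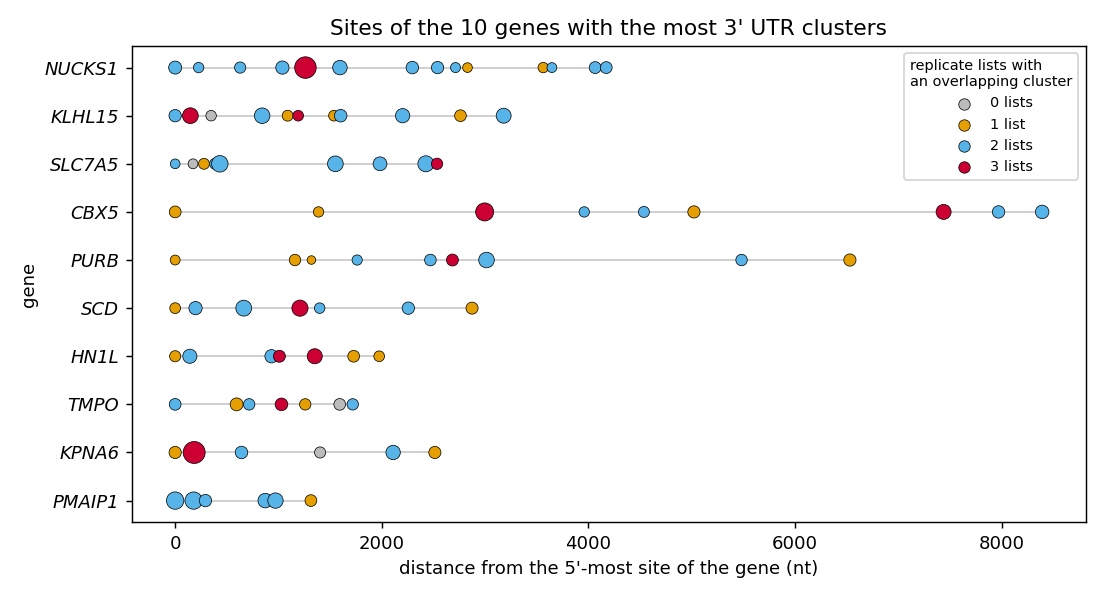
Each row is 1 of the 10 genes with the most 3' UTR clusters in the series-wide list, and each circle a site at its distance in nt from the 5'-most site, larger with more conversions and coloured by how many replicate lists overlap it. NUCKS1 has 14 sites with 1 overlapped in all 3 lists, and PMAIP1 has none of its 6 sites overlapped in 3.

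At the level of genes, 409 had a 3' UTR cluster in all 3 replicates, 1071 in 2 and 1945 in 1. Of the 409, 216 had a site overlapped in all 3 lists and 193 had no series-wide site of that kind. Genes with 5 or more series-wide sites were in all 3 lists in 33 of 40 cases (82.5%), against 179 of 1151 genes with 1 site (15.6%). Of 20056 protein-coding genes in the RefSeq table, 17.0% had a 3' UTR cluster in any replicate, 2.01% in all 3 and 7.91% in the series-wide list, and 2.22% had several sites there. Of the 5855 with any mRNA exon cluster in a replicate, 6.90% had a 3' UTR cluster in all 3.

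Genes with several sites overlapped in all 3 replicates were few, at 15, and 1 had 3 such sites. That gene was HDGF, a heparin-binding growth factor, all on exon 6 of the minus strand of chromosome 1. Its site at 156712191 to 156712246 had 24, 50 and 48 conversions, that at 156712850 to 156712909 had 29, 16 and 29, and that at 156712919 to 156712961 had 39, 39 and 37. The last had nearly equal counts in all replicates, from 6, 8 and 2 distinct reads. These counts are not divided by the list totals, which differed. DCTPP1, a pyrophosphatase that clears dCTP, had 237, 196 and 107 conversions at 30435225 to 30435312 on chromosome 16 and 64, 5 and 38 at 30435416 to 30435494. KLHL15, CBX5 and ATXN7L3B had 2 such sites each.

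Members and coding sequence clusters were also compared in further annotation, part of which follows from lying in a 3' UTR. Some annotations were less common in members. An annotated intron was also named for 5.58% ± 0.290 of members and 17.0% ± 1.13 of coding sequence clusters (SD, n = 3). A noncoding transcript, of a kind the choice did not leave out, was named for 18.3% ± 0.157 and 25.5% ± 0.631 (SD, n = 3). For a 3' splice site the values were 0.248% ± 0.0733 and 3.07% ± 0.481 (SD, n = 3). An annotated transcript end was overlapped by 2.32% ± 0.229 of members and 0.328% ± 0.214 of coding sequence clusters (SD, n = 3). A position within 1000 nt past the end of another annotated transcript was held by 36.6% ± 1.29 and 6.31% ± 0.293 (SD, n = 3). In a 3' UTR this means that a shorter transcript or a neighbouring gene ends upstream. Transcripts end at their 3' UTR, so both differences follow in part from the choice of region. An exon on the opposite strand was annotated for 4.48%, 3.45% and 3.77% of members and 2.86%, 2.30% and 2.32% of coding sequence clusters, a difference of 1.41 percentage points ± 0.236 (SD, n = 3; exact sign-flip permutation p = 0.25, adjusted p = 0.321, in 3 of 3 replicates). A repeat on the same strand, with Alu repeats already left out by the choice, was named for 3.01% ± 0.298 of members and 1.25% ± 0.505 of coding sequence clusters (SD, n = 3). An Alu on the opposite strand, which gives a transcript with the complement of an Alu, was named for 63, 95 and 18 members in replicates 1, 2 and 3 and 63 in the series-wide list. There their median was 17 conversions against 19 for other members, and 5 of 63 were overlapped in all 3 lists (7.94%) against 9.78% of the others.

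The gene lists below were drawn up by known function, without reference to transcript levels but with earlier results of these data known. Their shares are thus not independent of these data and are given as description. The lists hold mostly genes active in cultured cells, so a share above that of all protein-coding genes is not particular to a list. Some genes stand in several lists. Of all protein-coding genes, 17.0% had a 3' UTR cluster in any replicate and 2.01% in all 3. A gene counts as in all 3 lists also when its clusters lie at different positions. Messages of selenoproteins need a SECIS hairpin in the 3' UTR to read UGA as selenocysteine. They had a 3' UTR cluster in any replicate for 9 of 19 genes (47.4%) and in all 3 for 4 (21.1%, against 2.01% of all protein-coding genes). Of the 19, 11 had an mRNA exon cluster and 4 of these 11 were in all 3, against 6.90% of all such protein-coding genes. In each of these 4 a series-wide site was overlapped in all 3 lists. EPT1, now SELENOI, an enzyme of phospholipid synthesis, had 256, 48 and 57 conversions (chromosome 2, 26618475 to 26618521, plus strand, exon 10). SEP15, or SELENOF, of the endoplasmic reticulum, had 107, 39 and 20 (chromosome 1, 87328491 to 87328557, minus strand).

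SEPHS2, which makes the selenium donor for selenocysteine, had 50, 28 and 45 conversions (chromosome 16, 30455559 to 30455596, minus strand). GPX4, which reduces lipid peroxides, had 47, 34 and 44 (chromosome 19, 1106643 to 1106684, plus strand, exon 7). As counts not divided by list totals, GPX4 and SEPHS2 lay closer together in the 3 replicates than EPT1 and SEP15. Divided by the list totals, which differed, SEPHS2 was no more even than SEP15. EPT1 and SEP15 were highest in replicate 1. Whether these sites coincide with the SECIS hairpins was not tested. TXNRD1, a thioredoxin reductase, had clusters in replicates 1 and 2, and DIO1, SELENOK and SELENOM had none. Of 8 messages with iron-responsive hairpins, 2 had a 3' UTR cluster (25%, against 17.0% of all protein-coding genes), in replicate 1 alone, and 0 of 8 were in all 3. TFRC, the transferrin receptor, had 49 conversions over 4 clusters there.

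Known targets of let-7, a miRNA family that restrains growth, had a 3' UTR cluster in any replicate for 10 of 25 genes. This was 40%, against 17.0% of all protein-coding genes, and 5 (20%, against 2.01%) were in all 3. An mRNA exon cluster was present for 13 of the 25. Of these 13, 5 were in all 3, against 6.90% of all such protein-coding genes. Of these 5, 2 had a series-wide site overlapped in all 3 lists, while NRAS, LIN28B and IGF2BP1 had none. NRAS, a GTPase of growth signalling, had 12, 40 and 18 conversions in replicates 1, 2 and 3, and LIN28B, a protein that keeps let-7 precursors from being processed, had 100, 14 and 21. The RNA-binding protein IGF2BP1 had 76, 42 and 26 over 8, 4 and 2 clusters, and the cell cycle factor E2F2 had 44, 13 and 10. HMGA2 had a single cluster with 6 conversions, in replicate 2, and TRIM71, IGF2BP2 and IGF2BP3 had none.

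Targets of the miR-17 family, which acts on cell cycle brakes and cell death genes, had a 3' UTR cluster in any replicate for 15 of 27 genes. This was 55.6%, against 17.0% of all protein-coding genes. Of the 27, 18 had an mRNA exon cluster and 1 of these 18 was in all 3, against 6.90% of all such protein-coding genes. In all 3 lists was 1 listed gene (3.70% of 27, against 2.01% of all protein-coding genes). This was the cell cycle transcription factor E2F1, with 108, 49 and 49 conversions over 6, 5 and 3 clusters, 2 of its sites being overlapped in all 3 lists. The deeper, at 32263646 to 32263696 on chromosome 20 (minus strand), had 23, 29 and 33 conversions. E2F3 had 131, 24 and 0, and TXNIP, which inhibits thioredoxin, 179, 11 and 0. STAT3 and RBL2 had none. Of 22 targets of other miRNAs, 13 had a cluster (59.1%, against 17.0%) and 2 were in all 3 lists (9.09%, against 2.01%). These were the cyclin CCND3, with 70, 28 and 6 conversions, and the kinase CDK6, with 60, 9 and 15. Each had a series-wide site overlapped in all 3. An mRNA exon cluster was present for 18 of the 22, and 2 of these 18 were in all 3, against 6.90%.

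Of 31 genes of small RNA processing and double-stranded RNA binding, 17 had a 3' UTR cluster (54.8%, against 17.0% of all protein-coding genes). LIN28B was the 1 gene in all 3 lists (3.23%, against 2.01%), with no series-wide site overlapped in all 3. Of the 31, 24 had an mRNA exon cluster and 1 of these 24 was in all 3, against 6.90% of all such protein-coding genes. DDX17, a helicase of the Microprocessor complex, had 94, 41 and 0 conversions, and AGO2, the slicing Argonaute, 59, 6 and 0. DROSHA, XPO5 and AGO1 had none in the 3' UTR. Of 20 messages with AU-rich elements, 8 had a cluster (40%, against 17.0%) and 1 was in all 3 lists (5%, against 2.01%). This was JUN, a subunit of the AP-1 transcription factor, with 68, 28 and 8 conversions. Its site at 59247528 to 59247571 on chromosome 1 (minus strand) had 15, 9 and 8. MYC and FOS had none. An mRNA exon cluster was present for 10 of the 20, and 1 of these 10 was in all 3, against 6.90%.

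Regulators of RNA processing had a 3' UTR cluster in any replicate for 29 of 41 genes (70.7%, against 17.0% of all protein-coding genes). In all 3 there were 7 (17.1%, against 2.01%), of which 4 had a series-wide site overlapped in all 3. With an mRNA exon cluster there were 39 of the 41. Of these 39, 7 were in all 3, against 6.90% of all such protein-coding genes. This list also held NUCKS1, which is better known for binding DNA and had the most 3' UTR sites in the series-wide list. NUCKS1 counts among the 29, the 7 and the 4. SRSF6, a splicing factor, had 176, 5 and 26 conversions, and ELAVL1, the AU-rich element binding protein HuR, 93, 27 and 8. PABPC1, TARDBP and YBX1 had none in the 3' UTR. Of 29 cell cycle genes, 21 had a cluster (72.4%, against 17.0%) and 6 were in all 3 lists (20.7%, against 2.01%). These were E2F1, CCNG1, CCND3, CDK1, CDK6 and E2F2, and 5 of them had a series-wide site overlapped in all 3. An mRNA exon cluster was present for 27 of the 29, and 6 of these 27 were in all 3, against 6.90%. CDK1, the mitotic kinase, had 35, 29 and 24 conversions at a single site (chromosome 10, 62554144 to 62554199, plus strand), while CCND2 had 333 and 63 in replicates 1 and 2 and 0 in replicate 3.

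Growth and survival signalling genes had a cluster in any replicate for 21 of 33 (63.6%, against 17.0% of all protein-coding genes). In all 3 there were 6 (18.2%, against 2.01%), of which 2 had a series-wide site overlapped in all 3. With an mRNA exon cluster there were 27 of the 33. Of these 27, 6 were in all 3, against 6.90% of all such protein-coding genes. Besides NRAS, the 6 included YWHAE, a 14-3-3 protein (115, 127 and 26 conversions), SMAD5, of the BMP pathway (106, 59 and 41), and the receptor IGF1R (10, 1 and 18). Of 34 housekeeping and metabolic messages, 23 had a cluster (67.6%, against 17.0%) and 7 were in all 3 lists (20.6%, against 2.01%). Of these 7, 4 had a series-wide site overlapped in all 3. An mRNA exon cluster was present for 32 of the 34, and 7 of these 32 were in all 3, against 6.90%. ACTG1, the cytoplasmic gamma actin, had a site with 236, 43 and 20 conversions (chromosome 17, 79477346 to 79477487, minus strand). TUBA1B, an alpha tubulin, had 72, 18 and 15, and the glucose transporter SLC2A1 47, 26 and 50. Actin and tubulin genes have close relatives and processed copies, and the assignment of their reads was not tested. ACTB, VIM and HSPA8 had no 3' UTR cluster.

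Of 17 sterol and endoplasmic reticulum stress genes, 11 had a 3' UTR cluster (64.7%, against 17.0%) and 2 were in all 3 lists (11.8%, against 2.01%). These were SCD and XBP1, each with a series-wide site overlapped in all 3. With an mRNA exon cluster there were 15 of the 17. Of these 15, 2 were in all 3, against 6.90% of all such protein-coding genes. XBP1, the transcription factor of the unfolded protein response, had a site with 195, 38 and 16 conversions (chromosome 22, 29190894 to 29190926, minus strand). Ribosomal protein messages had a cluster for 6 of 31 genes (19.4%, against 17.0% of all protein-coding genes) and 2 were in all 3 lists (6.45%, against 2.01%). These were RPL27A with 58, 38 and 55 conversions and RPL13 with 50, 7 and 11. Neither had a series-wide site overlapped in all 3. An mRNA exon cluster was present for 25 of the 31, and 2 of these 25 were in all 3, against 6.90%. Ribosomal protein 3' UTRs are mostly short, but the RPL27A sites ran from 8707356 to 8710638 on chromosome 11. Those of RPL13 ran from 89629508 to 89631790 on chromosome 16. Ribosomal protein genes have many processed copies, for which the assignment of reads was not tested. None of 15 markers of other cell types and none of 5 neuronal genes had a 3' UTR cluster in any list (0 of 15 and 0 of 5). ALB, PTPRC, HBB and NEFL were among them, and the share of all protein-coding genes in any replicate was 17.0%. An mRNA exon cluster not counted as a member was nevertheless present for 2 of the 15 and 2 of the 5, NEFL among the latter.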

How the data were processed

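Dicer-bound RNA fragments of 3 replicates were read from cluster lists, 1 per replicate and 1 for the series. The authors deposited for each cluster a count of T-to-C conversions, not normalised, and an entropy score that was not used for any result. Per the submitters' processing notes, Bowtie2 2.1.0 and the hg19 build were used. Per the file headers and attributes, clusters were called with an estimated false discovery rate of 5%, and replicate lists were filtered by length. Totals per list were 1306125, 1060791 and 595487 conversions, and precision was judged from the 3 replicates.

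Members and gene lists were chosen with earlier results of these data known. Tokens were read on the cluster's own strand. A cluster naming several genes was given to those whose RefSeq exon held it (GRCh38.p14 table, names only; 99.6% of 3520 names matched). Differences were tested by exact sign-flip permutation over replicates with Benjamini-Hochberg adjustment over 9 tests (5 added after the data were seen), in Python 3.11.15. Overlap counting was tested on simulated data. Genes named were the 10 with most series-wide sites, the 12 deepest sites overlapped in all 3 lists, up to 3 leading members of each list, 2 leading unshared sites per replicate and the 5 with most shared sites. Some members of the gene lists are counted but not reported here by name. Named after their values were seen were PPIL1, YWHAG, further list members and listed genes without clusters. Alternatives were a limit of 3 distinct reads, a stricter overlap, other token rules, both sequencing runs and leaving out each replicate.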

Additional observations from a re-analysis of the deposited data

How the results depend on the processing

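Of 46 alternatives to the results over all members, 40 kept their direction and side of the threshold, or stayed within 1.5 times for counts, 6 moved and 0 reversed. By distinct reads in place of conversions, the difference of median log2 values between 3' UTR and coding sequence clusters was 0. With at least 3 distinct reads, the mean number of members per replicate fell from 2729 to 942, and the genes with a 3' UTR cluster in all 3 replicates went from 409 to 53. That number was 217 when 1 position had to be overlapped in all 3 lists and 199 when clusters below their list's median conversions were left out. Leaving out a replicate gave 486 to 1291 genes in the remaining lists, the highest without replicate 3. Leaving out clusters with an Alu or structured noncoding RNA on the opposite strand, chosen after the data were seen, gave 396. As shares of distinct reads, TMED2 held 0.0466% (0.0296% of conversions) and MLEC 0.0427% (0.0303%). KPNA6 held 0.0301% (0.0151%) and H3F3B 0.0174% (0.0307%). Leaving out 1 replicate moved the mean share of 5 of the 12 deepest sites by over 1.5 times: DCAF7, H3F3B, KPNA6 and NUCKS1 without replicate 1 and MAPRE1 without replicate 2. With 3 replicates no test could pass 0.05, so the tests do not speak to stability. Most members had 2 distinct reads, and absence from a list at this depth does not show absence of binding. No paired analysis was possible because the samples form 1 group, so replicates could not be matched across groups; regions were compared within each replicate.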
